A study of Mus musculus with 18 samples.

Results

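The cells described here are the Sox1+ Sox2+ Otx2+ cells of E8.5 mouse embryos: barcodes with at least 3000 mouse UMIs (unique molecular identifiers, each standing for 1 captured transcript) and at least 1 UMI of each of Sox1, Sox2 and Otx2. There were 2530 such cells among 105556 barcodes. They came from 18 libraries made with 10x Genomics 3' chemistry, each labelled as 1 dissociated whole embryo on the 129S4/SvJae background: 7 wildtype (WT), 3 Dnmt1 null (Dnmt1 KO), 4 Dnmt3a null (Dnmt3a KO) and 4 Dnmt3b null (Dnmt3b KO), although Dnmt3b KO 1 and Dnmt3b KO 2 shared cells and may not be separate embryos. Mutants and WT came from crosses of heterozygous parents, and the mutants lacked the gene in every tissue, so that effects from outside the neural tube cannot be told apart from effects within it. WT embryos gave 1254 of the cells, Dnmt1 KO 101, Dnmt3a KO 665 and Dnmt3b KO 510, and single libraries between 21 (Dnmt1 KO 2) and 260 (WT 3).

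At this stage the neural plate closes into a tube whose front end becomes forebrain and midbrain. Sox1 and Sox2 are transcription factors of neural progenitors along the whole neural axis, and Otx2 is the homeobox factor that marks the part in front of the midbrain-hindbrain boundary. Dnmt1 copies DNA methylation onto newly made strands, whereas Dnmt3a and Dnmt3b place methylation on unmethylated DNA, and methylation of CpG-rich promoters is known for keeping germline genes silent in somatic cells.

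Dnmt3b KO 1 and Dnmt3b KO 2 shared 7493 of their kept barcodes, and 28 cell barcodes were Sox1+ Sox2+ Otx2+ in both, so that their 77 and 117 cells held 166 distinct barcodes. Expression profiles of the same barcode in both libraries had a median cosine of 0.776, against 0.691 for different barcodes. They were counted as 1 library in each main comparison, leaving 3 Dnmt3b KO libraries. Across libraries the summed UMIs of the Sox1+ Sox2+ Otx2+ cells ranged from 1042259 to 18806723 and the median UMIs per cell from 18340 to 74411. Y-linked counts marked 11 of the 18 libraries as male, among them each Dnmt1 KO and Dnmt3a KO library but a single WT library (WT 2), and 1 Dnmt3b KO library was female, so that sex and genotype were largely confounded. Doublet calling marked 269 of the 2530 cells, and 500 of them (19.8%) passed on a single Otx2 UMI, a share of 16.7% in WT and 28.6% in Dnmt3b KO.

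Levels below are CPM, the counts of a gene per 1000000 summed UMIs of the cells of a class in a library, given as mean ± SD over libraries. The 3 genes of the rule chose the cells, and their levels are given as a description. Otx2 (chromosome 14, 48657677 to 48673819, minus strand of mm10) stood at 139.6 ± 32.5 CPM over the 7 WT libraries, at 107 ± 51.9 over the 3 of Dnmt1 KO, at 141.2 ± 6.64 over the 4 of Dnmt3a KO and at 122.2 ± 25.7 over the 3 of Dnmt3b KO. Sox2 stood at 195.8 ± 32.7, 110.6 ± 34, 175.4 ± 10.6 and 169.4 ± 33.9 CPM, and Sox1 at 46.8 ± 9.53, 22.3 ± 4.63, 45.7 ± 5.87 and 48.4 ± 13.3 CPM, in the same order. The Dnmt1 KO cells thus held the lowest mean of each, and for Otx2 the libraries overlapped with WT.

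To ask whether other genes bear out the label of forebrain and midbrain neuroepithelium, the cells were compared with the Sox1+ Sox2+ barcodes in which no Otx2 UMI was seen (6484 in all, 2680 of them in WT), within each WT embryo. The Sox1+ Sox2+ Otx2+ cells were higher in most tested transcription factors of the anterior neural plate, and the genes of largest difference were nearly absent from the other class. Six3, a homeobox factor of the forebrain and eye field (chromosome 17, 85613608 to 85629302, plus strand), had 117, 173, 125, 111, 149, 182 and 178 CPM in WT 1 to WT 7, against at most 1.83 CPM in the other class of any WT embryo. The groups did not overlap, and the fitted log2 difference was 7.14 (SE 0.18). Hesx1, a homeobox repressor of the anterior plate and pituitary, followed at 96.2 against 0.967 CPM (log2 6.52), then Fezf1 (6.41), Rax (6.28), which specifies the retina field, Otx1 (5.995), Tal2 (5.41), Lhx2 (4.85), Irs4 (4.62), Fzd5 (4.34) and Lhx5 (3.42). Other forebrain factors were well expressed in both classes, with Foxd1 at 46.7 ± 8.67 against 17.0 ± 4.99 CPM (log2 1.45) and Sp8, which was not called, at 47.2 ± 7.34 against 34.8 ± 4.57 CPM.

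Midbrain genes differed less. En1, the homeobox factor of the midbrain and isthmus (chromosome 1, 120602418 to 120607992, plus strand), stood at 111.5 ± 27.8 against 22.2 ± 10.5 CPM (log2 2.27, SE 0.14), and Wnt1, a ligand of the dorsal midbrain, at 17.0 ± 7.13 against 3.14 ± 0.902 CPM (log2 2.42). Pax2, a paired-box factor of the isthmus, differed by 1.82 on the log2 scale. Every WT embryo showed each of these directions. Fgf8, the ligand of the isthmic organiser, was at 49.6 ± 12.9 against 44.1 ± 15.9 CPM and was not called.

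Hindbrain and spinal cord genes were lower. Hoxb1, which marks rhombomere 4 and more caudal levels, stood at 13.5 ± 8.58 against 46.5 ± 8.71 CPM (log2 -1.73), and Gbx2, the factor that opposes Otx2 at the boundary, at 7.92 ± 3.94 against 22.6 ± 4.94 CPM (-1.44). The other genes of largest difference were 1700011H14Rik (-2.79), Vgll3 (-2.79), the Wnt inhibitor Sfrp5 (-2.34), Cpn1 (-2.26), the Hoxa-cluster transcript Hotairm1 (-2.21), Fgfbp3 (-2.18), Ttr (-2.16) and the retinoic acid receptor Rarb (-2.11). Pax6, expressed in both forebrain and hindbrain, was at 64.4 ± 20.5 against 100.5 ± 30.1 CPM, a difference short of the 2-fold needed for a call.

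By list, 12 of 14 tested forebrain factors and 7 of 12 midbrain and isthmus factors were called higher in the Sox1+ Sox2+ Otx2+ cells, and 14 of 15 hindbrain and spinal cord factors were called lower. Among all 13036 genes tested, 222 were called higher (1.7%) and 295 lower (2.26%), 3.97% in all. Of the imprinted genes 0 of 29 and of the cell cycle genes 0 of 12 were called. The fit was the quasi-likelihood test of edgeR with embryo as a block, and a call needed an adjusted p under 1% with a log2 difference of at least 1 in either direction. The classes were cut by Otx2 in the same cells, so these tests describe what travels with Otx2.

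**Figure D1:**
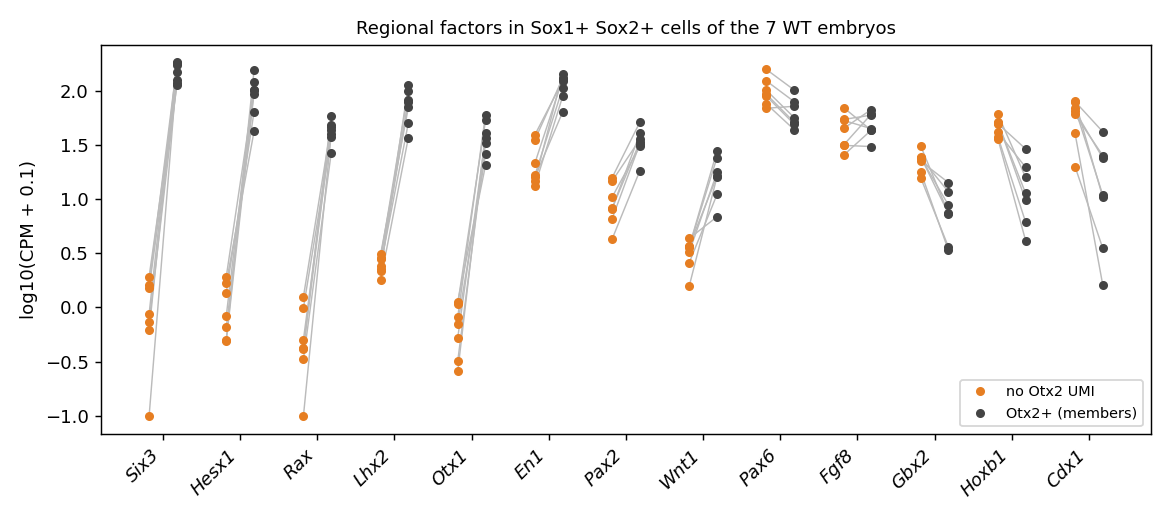
Levels of 13 regional factors in Sox1+ Sox2+ cells of the 7 WT embryos, as log10 of CPM plus 0.1 on the vertical axis. Orange points are cells without an Otx2 UMI, dark points the Sox1+ Sox2+ Otx2+ cells, and lines join the classes of 1 embryo. Six3, Hesx1, Rax, Lhx2 and Otx1 at the left rise by orders of magnitude, En1, Pax2 and Wnt1 by less, and the hindbrain factors at the right fall.

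The threshold of 1 UMI admitted cells of mixed position. Summed over WT, Six3 stood at 1.03 CPM in cells with 0 Otx2 UMIs, 18.8 with 1 UMI and 168 with 2 or more, and Hoxb1 at 45.7, 29.3 and 13.9 CPM. En1 was already at 109 CPM with 1 Otx2 UMI and stayed at 108 with more. Cells at the threshold thus had the En1 level of the other cells and lay between the classes in Six3 and Hoxb1. Gbx2, in the same order, stood at 23.4, 24.8 and 6.67 CPM and Egr2 at 7.34, 13.7 and 3.07. In both of these hindbrain genes the cells with 1 Otx2 UMI were thus highest, not intermediate. As a background in cells that should lack Otx2, all thinned to 20000 UMIs, an Otx2 UMI was seen in 1.83% of 1145 endothelial, 0.69% of 3916 erythroid and 8.84% of 2737 cardiomyocyte barcodes, and all 3 genes together in 0.0873% of the endothelial and 0.438% of the cardiomyocyte ones. By group, an Otx2 UMI was seen in 14.4% of 181 cardiomyocyte barcodes in Dnmt1 KO, 11.1% of 976 in WT, 7.85% of 955 in Dnmt3b KO and 5.28% of 625 in Dnmt3a KO. All 3 genes were seen there in 0.553% in Dnmt1 KO (1 barcode) and 0.82% in WT (8 barcodes). The former is close to the share of Sox1+ Sox2+ Otx2+ cells in Dnmt1 KO at that depth, but a single barcode cannot place that background. In the 96 endothelial barcodes of Dnmt1 KO, an Otx2 UMI was seen in 1.04% and all 3 genes in 0.

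Next, the share of these cells in an embryo is described. At full depth they made up 2.01, 1.11, 4.95, 6.26, 4.01, 4.04 and 8.28% of the barcodes of WT 1 to WT 7. Since detection of 3 genes depends on depth, barcodes were thinned to an equal number of UMIs, and shallower ones were left out. Thinning to 3000 UMIs, as first planned, left 0 to 14 such cells per library and 0 in Dnmt1 KO, which allows a share of up to 0.0962 to 0.198% in its libraries, so a depth of 20000 UMIs was added after these values were seen. It keeps 22375 of 33478 barcodes in WT, 4747 of 7079 in Dnmt1 KO, 17374 of 31714 in Dnmt3a KO and 15736 of 33285 in Dnmt3b KO, so its shares are of the deeper barcodes.

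At 20000 UMIs the share was 2.91 ± 1.33% over the WT libraries, against 0.639 ± 0.189% over those of Dnmt1 KO, 1.80 ± 0.52% for Dnmt3a KO and 1.40 ± 0.38% for Dnmt3b KO. The Dnmt1 KO libraries, at 0.793, 0.428 and 0.694%, all lay below the lowest WT library, at 1.44%, and rested on 28 cells. The difference of the mean log2 shares was -2.05 for Dnmt1 KO, -0.61 for Dnmt3a KO and -0.97 for Dnmt3b KO, and libraries of the latter groups overlapped with WT. Without WT 2 these were -2.20, -0.76 and -1.12. At full depth the differences were -1.36, -0.92 and -1.22, in the same order. The Dnmt1 KO libraries, then at 2.24, 0.67 and 1.88%, overlapped with WT. Sox1 and Sox2 levels were themselves lower in Dnmt1 KO cells, as given above, and since UMIs of the same 3 genes define the share, it is a description, with no test.

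Within the Sox1+ Sox2+ cells, the fraction with an Otx2 UMI went the other way. At 20000 UMIs it was 24.2 ± 3.7% in WT and 43.2 ± 3.9% in Dnmt1 KO, whose libraries stood at 40.0, 47.6 and 42.1%. That difference was 19.04 percentage points, and 20.2 points at full depth. Dnmt3a KO stood at 21.0 ± 4.6% and Dnmt3b KO at 19.9 ± 2.5%, differences of -3.19 and -4.27 points. Since Otx2, Sox1 and Sox2 UMIs chose the cells, these fractions are a description, with no test. Thinned to 3000 UMIs, Dnmt1 KO kept 0 Otx2-detected cells of 6, against a WT mean of 10.2%. The difference of -10.2 points is that mean with its sign turned, and 6 cells cannot show a direction.

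**Figure D2:**
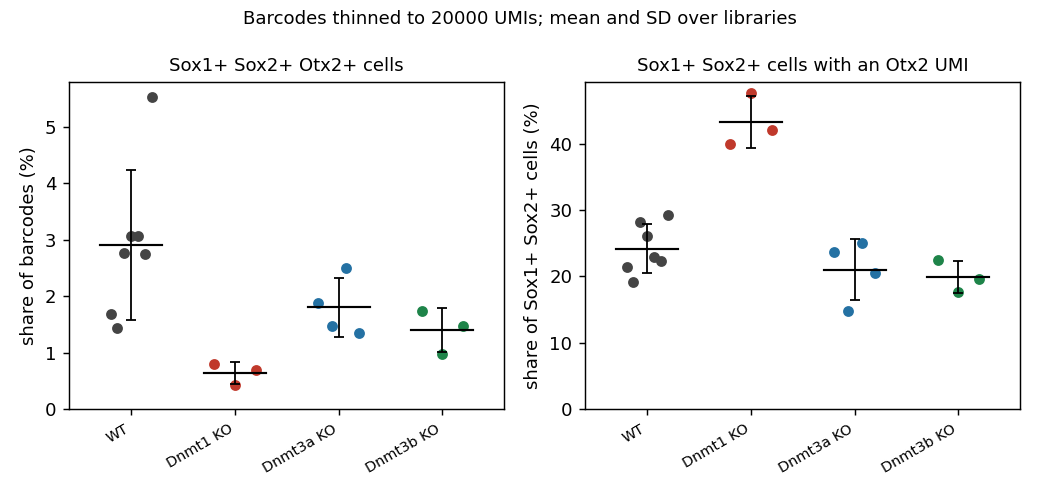
Share of Sox1+ Sox2+ Otx2+ cells among barcodes (left, %) and share of Sox1+ Sox2+ cells with an Otx2 UMI (right, %), over barcodes with at least 20000 UMIs, thinned to that number. Points are libraries, lines the mean and bars the SD. The 3 Dnmt1 KO libraries lie below all WT libraries on the left and above them on the right.

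To describe how the cells divide by region, detection was counted in cells with at least 20000 UMIs, thinned to that depth (1197 cells of WT, 100 of Dnmt1 KO, then 601 of Dnmt3a KO and 412 of Dnmt3b KO). The cells were chosen by the rule at full depth, and only the regional genes were thinned. After thinning, 599, 28, 332 and 228 cells still met the rule, in the same order. The groups are thus not matched for how weakly their cells passed it. In WT, Six3 was seen in 50.3 ± 4.8% of cells, Hesx1 in 42.7 ± 6.2%, Lhx2 in 38.5 ± 4.3%, Rax in 31.8 ± 3.1%, En1 in 31.1 ± 7.6% and Pax2 in 42.9 ± 8.7%. Cells with Six3, Hesx1, Rax or Lhx2 and none of En1, Wnt1 and Pax2 were 33.7 ± 4.6%, cells with only the second set 31.9 ± 6.5%, cells with both 22.5 ± 4.9% and cells with neither 11.9 ± 4.1%. The sets were largely separate at their extremes, since Six3 and En1 were seen together in 2.19 ± 2.13% of cells.

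In Dnmt1 KO, cells with only the first set were 29.7 ± 3.1% and cells with both 21.7 ± 7.2%, near WT. Cells with only the second set were 17.2 ± 5.6%. Cells with neither set were 31.4 ± 6.0% (25 to 37.0% by library), against 4.44 to 17.9% in WT libraries. Of these, 22 of 33 in Dnmt1 KO and 81 of 155 in WT held a UMI of the hindbrain genes Gbx2, Hoxb1 or Egr2. Such cells were 21.0 ± 6.83% of all cells (14.7 to 28.3%), against 6.24 ± 1.77% in WT (4.44 to 9.36%), and the libraries did not overlap. They were 10.3 ± 5.96% in Dnmt3a KO (4.5 to 16.8%), which overlapped with Dnmt1 KO, and 6.185 ± 3.13% in Dnmt3b KO. Cells with a UMI of any of these hindbrain genes, with or without the 2 sets, overlapped between Dnmt1 KO and WT. Their shares were 29.3 ± 8.17% (20 to 35.3%) and 21.2 ± 7.99% (14.2 to 35.7%). Gbx2 was seen in 16.9 ± 6.29% of Dnmt1 KO cells against 10.6 ± 3.78% in WT, and Egr2 in 9.72 ± 6.91% against 4.97 ± 2.72%, whereas Hoxb1 was seen in 7.51 ± 2.17% against 11.1 ± 6.10%, and all 3 overlapped. Lhx2 was seen in 4.10 ± 1.05%, Rax in 5.04 ± 4.31%, Pax6 in 10.9 ± 9.2% (50.4 ± 5.1% in WT) and En1 in 6.27 ± 5.47%. Hesx1, at 36.4 ± 12.2%, and Pax2, at 34.6 ± 3.9%, stayed within or near the WT range. Six3 stood between, at 29.3 ± 3.8%. In Dnmt3a KO and Dnmt3b KO, Six3 was seen in 47.3 ± 11.2% and 38.5 ± 6.9%, En1 in 28.3 ± 6.6% and 36.0 ± 11.1%, and neither set in 18.2 ± 7.8% and 17.0 ± 7.9%. Rax was seen in 27.5 ± 9.59% in Dnmt3a KO and in 19.13 ± 3.40% in Dnmt3b KO (16.2 to 22.8%), whose libraries all lay below the lowest WT library (27.7%). Lhx2 was seen in 34.9 ± 10.1% and 31.5 ± 7.20%, and Pax6 in 52.0 ± 6.76% and 46.5 ± 5.86%. Hesx1 was seen in 29.6 ± 8.53% and 34.6 ± 6.91% and Pax2 in 26.5 ± 5.23% and 34.6 ± 9.84%, so that for both genes the Dnmt3a KO mean was lower than that of Dnmt1 KO, and cells with both sets were 16.1 ± 2.61% and 20.5 ± 9.16%. These shares are descriptions, with no test.

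Next, summed counts of the Sox1+ Sox2+ Otx2+ cells of each KO group were compared with WT by the same edgeR test and the same call, with the embryo as the replicate. Libraries entered with at least 25 such cells, which left 2 Dnmt1 KO libraries, and a fit with all 3 (at least 10 cells) is given beside it. In Dnmt1 KO, 3721 of 12955 genes had an unadjusted p under 0.05. Of all tested, 680 were called (5.25%), 443 higher (3.42%) and 237 lower (1.83%). With all 3 libraries these were 782 of 12358 genes, 493 higher (3.99%) and 289 lower (2.34%). Without Dnmt1 KO 3 the number was 191 and without Dnmt1 KO 1 it was 360, each then a fit with 1 Dnmt1 KO library assumed to vary like the other groups, and with a Y-linked covariate for sex it was 409. Dnmt3a KO had 2 called genes, both higher (0.0154%), with 1180 genes at an unadjusted p under 0.05 and 28 calls by DESeq2. Dnmt3b KO had 87 (0.672%), 83 higher (0.641%) and 4 lower (0.0309%), and 63 without Dnmt3b KO 12. With libraries of at least 10 cells the shares called higher and lower were 0.0728 and 0.00809% for Dnmt3a KO and 0.696 and 0.0405% for Dnmt3b KO. As a background for statements on libraries that do not overlap, 10.9% of the genes had both Dnmt1 KO libraries of the fit above each WT library and 23.1% below, with 0.756 and 0.201% for Dnmt3a KO and 2.89 and 1.54% for Dnmt3b KO.

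The targeted genes were examined first. Dnmt1 (chromosome 9, 20907209 to 20959888, minus strand) had 16.9, 18.2 and 16.3 CPM in Dnmt1 KO, against 112 to 144 CPM in WT, and fell by 2.79 on the log2 scale (SE 0.17, edgeR adjusted p = 1.1e-08). Dnmt3a had 6.63, 7.85, 12.2 and 8.92 CPM in Dnmt3a KO 1, 13, 14 and 2, all below the 20.5 to 31.9 CPM of WT, a log2 difference of -1.62 that missed the call (edgeR adjusted p = 0.012) and passed it with all 3 Dnmt1 KO libraries in the fit (0.0065). Dnmt3b had 97.7, 102 and 138 CPM in Dnmt3b KO, within the 70.2 to 171 CPM of WT. Counts from the 3' end need not cover the disrupted part of a gene, so the Dnmt3b level is no check of those labels. In Dnmt1 KO, Dnmt3b itself stood at 303, 540 and 348 CPM and rose by 1.59 on the log2 scale (SE 0.20, edgeR adjusted p = 5.0e-05).

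In Dnmt1 KO most listed forebrain and midbrain factors were low. Some of them, such as Pax6 and Pax3, were not higher in these cells than in the other class in WT. Pax6 and En1 were low in the Sox1+ Sox2+ cells without an Otx2 UMI too. Summed over libraries, they stood there at 6.55 and 0.819 CPM in Dnmt1 KO, against 93.65 and 24.6 in WT. Pax2 differed less there, at 7.86 against 10.4 CPM. Of 16 tested forebrain factors 11 fell and 0 rose, with a median log2 difference of -3.72, against -0.02 over all genes tested. Lhx2, a LIM-homeobox factor of eye and cortex (chromosome 2, 38339281 to 38369733, plus strand), had 81.7, 112, 50.3, 36.7, 98.7, 78.4 and 69.8 CPM in WT and 2.21, 2.88 and 4.95 CPM in Dnmt1 KO (log2 -4.15, SE 0.50). Pax6 had 43.5 to 101 CPM in WT and 6.98, 5.76 and 4.20 in Dnmt1 KO (log2 -3.42). In both genes the libraries were far apart.

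Foxd1, a forkhead factor of the ventral forebrain and retina, had 33.8 to 55.5 CPM in WT and 2 counts in all 3 Dnmt1 KO libraries together, a ratio of 0.00589 with a 95% counting interval from 0.000713 to 0.0213. Rax had 0.368, 7.68 and 0.247 CPM, with Dnmt1 KO 2 far above the other libraries (log2 -6.97 without it and -4.82 with it). Six3 behaved likewise, at 24.6, 83.5 and 19.04 CPM, and fell by 2.65 without Dnmt1 KO 2 (SE 0.31, edgeR adjusted p = 2.5e-05) and by 1.89 with it. The other called forebrain factors were Fezf1, Fezf2, Otx1, Lhx5, Sp8 and Emx2, of which Lhx5 and Sp8 lost their calls with the Y-linked covariate. Hesx1 differed from this pattern, at 54.4, 59.5 and 34.9 CPM within or near the WT range of 42.0 to 154 (edgeR adjusted p = 0.20).

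Of 12 midbrain and isthmus factors 7 fell and 0 rose, with a median log2 difference of -2.31. En1 had 88.3, 105, 122, 63.4, 143, 128 and 130 CPM in WT and 6.62, 5.76 and 1.48 in Dnmt1 KO (log2 -4.79, SE 0.52, edgeR adjusted p = 9.8e-06). En2 had 5.95 to 24.3 CPM in WT and 0 counts in Dnmt1 KO, at least 27.6-fold lower with a floor of 3 counts over the group. Pax5 fell by 5.34, Fgf8 by 2.40 (8.82, 5.76 and 8.41 CPM against 30.3 to 66.7), and Pax3, Pax8 and Fgf17 by less. Wnt1 (log2 -2.62) was called with all 3 Dnmt1 KO libraries only, and Pax2 (-0.46) in neither fit.

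Of 15 hindbrain and spinal cord factors 0 were called by edgeR (4 at an unadjusted p under 0.05, against 3721 of all 12955 genes), with a median log2 difference of -1.26. Gbx2 had 11.8, 5.76 and 16.3 CPM in Dnmt1 KO against 3.25 to 14.04 in WT. A called gain of a posterior factor was thus not seen at the level of summed counts, and the share of cells with a hindbrain UMI and neither anterior set is given above. Of the called genes with the largest decrease, Nkx2-9, a homeobox factor of the ventral neural tube, also fell, from 26.7 to 43.5 CPM in WT to 1.10, 0 and 0.742.

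**Figure D3:**
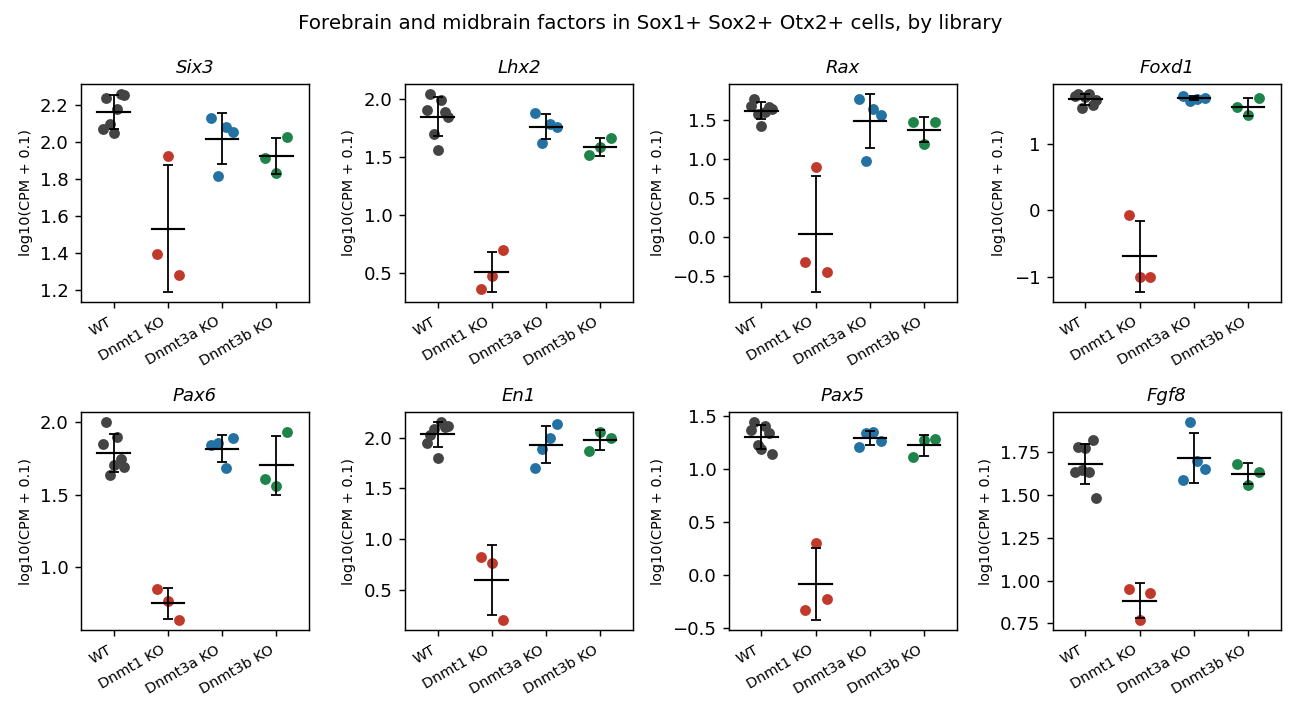
Levels of 8 forebrain and midbrain factors in Sox1+ Sox2+ Otx2+ cells, as log10 of CPM plus 0.1, by genotype. Points are libraries, lines the mean and bars the SD of the plotted values. The 3 Dnmt1 KO libraries are below all WT libraries in each panel, with Dnmt1 KO 2 closest to WT for Six3 and Rax, whereas Dnmt3a KO and Dnmt3b KO overlap with or lie near WT.

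Of 18 tested genes of neural progenitors in general, 4 fell in Dnmt1 KO, namely Cdh2 (N-cadherin, 39.3, 40.3 and 38.6 CPM against 86.5 to 142), Sox21, the Notch target Hes3 and the POU factor Pou3f2, and the median was -0.84. Nes (nestin) differed by -0.18 and Sox3 by -0.56 on the log2 scale, neither called. Of 7 neuron differentiation genes 0 were called by edgeR (3 at an unadjusted p under 0.05), with a median of -0.69. With all 3 libraries 2 of 6 were called, Stmn2 higher (log2 1.06) and Neurog2 lower. Neurog2 had 0 counts in Dnmt1 KO, at least 3.67-fold lower with a floor of 3 counts over the group. Among 24 genes of the Wnt, Shh, Fgf and Bmp pathways 3 fell, the Wnt targets Sp5 (log2 -2.49) and Lef1 and the Fgf target Spry1, and 1 rose, Cyp26a1, which degrades retinoic acid (27.2, 48.9 and 37.1 CPM against 3.75 to 15.3). The Cyp26a1 call held in 17 of 27 settings and, like that of Lef1, was lost with the Y-linked covariate. With all 3 libraries Wnt8b also fell. Cell cycle genes gave 0 calls by edgeR among 12, with 1 at an unadjusted p under 0.05 and a median of -0.0089. Stress genes gave 0 of 8, with 1 at an unadjusted p under 0.05 and a median of 1.155, and blood genes 0 of 5, with 3 at an unadjusted p under 0.05 and a median of -2.92. Of 9 methylation cofactors Mbd2 fell.

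With regard to earlier programmes, the primed pluripotency genes named by the study all rose in Dnmt1 KO, 5 of 5, with a median log2 difference of 2.70. In Dnmt3a KO the median was -1.15, with 0 of 5 called by edgeR and 5 of 5 at an unadjusted p under 0.05, and in Dnmt3b KO it was -0.63 with 0 of 5 at either. This list was chosen from these embryos and is no independent evidence. Pou5f1 (Oct4, chromosome 17, 35506018 to 35510772, plus strand) had 0.775, 1.501, 12.7, 18.9, 14.4, 18.4 and 36.5 CPM in WT 1 to WT 7 and 111, 123 and 119 CPM in Dnmt1 KO. WT embryos thus varied widely, and each lay far below Dnmt1 KO. The fitted difference was 3.01 (SE 0.66, edgeR adjusted p = 0.0050) and was not called by DESeq2. Utf1 rose by 3.85, Fgf5 by 2.70, Slc7a3 by 2.67 and Pim2 by 2.03. Of 9 listed epiblast and primitive streak genes, 5 passed the count filter here and 3 in the fit of WT cells alone. Nanog was not among the latter, so the count of calls is a description. Nanog (11.8, 12.5 and 13.3 CPM against at most 3.35) and L1td1 rose. With the Y-linked covariate, Utf1, Fgf5, Pim2, Nanog and L1td1 lost their calls, the fitted differences lying between 1.85 and 4.67. T (brachyury) had 0, 1.92 and 6.92 CPM, within the WT range. Of the 6 extraembryonic genes named by the study, Xlr3a and Trap1a rose, and Krt8 and Apoe joined them with all 3 libraries. Ascl2 went the other way without a call, at 0, 1.92 and 0.247 CPM against 0.607 to 3.75 in WT, from 3 counts in Dnmt1 KO. This list too was chosen from these embryos. Xlr3a, which has near-identical copies, also rose in Dnmt3b KO, at 21.0, 13.4 and 24.2 CPM against 0.155 to 1.67 in WT (log2 4.11), the only call of this list there. In Dnmt3a KO 0 of 6 were called by edgeR (1 of 6 at an unadjusted p under 0.05), with Xlr3a at 2.33 to 10.7 CPM, above each WT library.

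Markers of some other cell types moved with these differences. The summed level of 5 surface ectoderm markers (Grhl2, Grhl3, Wnt6, Krt18 and Epcam) was 471 to 571 CPM in Dnmt1 KO cells and 29.7 to 184 CPM in WT cells. Epcam, which epiblast also expresses, held a large part of this sum, at 273, 376 and 294 CPM against 11.02 to 85.3. The Epcam call was lost with the Y-linked covariate. Grhl3 did not rise, with 3 counts in Dnmt1 KO and a ratio to WT of 0.5084 (0.102 to 1.559). In the Sox1+ Sox2+ cells without an Otx2 UMI, the sum in each Dnmt1 KO library was also above each WT library. In Dnmt3b KO the sum in the Sox1+ Sox2+ Otx2+ cells was 157.3 to 306.3 CPM, which overlapped with WT. The 4 extraembryonic ectoderm markers summed to 17.3 to 26.5 CPM against 2.12 to 11 CPM. Among them Elf5 did not rise, with 3 counts in Dnmt1 KO and a ratio to WT of 0.872 (0.172 to 2.76). Rhox9 had a ratio to WT of 102 (31.6 to 521) in Dnmt1 KO and of 98.8 (32.4 to 491) in Dnmt3b KO. The 4 endoderm markers spread widely in both, 63.3 to 528 CPM in Dnmt1 KO and 18.2 to 478 CPM in WT, the 4 erythroid markers summed to 16.2 to 76.9 CPM against 24.2 to 1416, and the 4 neural crest markers to 13.4 to 20.2 CPM against 6.78 to 26.7. Among the latter Sox10 and Tfap2b were at 0 in Dnmt1 KO, and Tfap2a, which surface ectoderm also expresses, stood at 17.5 ± 3.55 CPM against 9.08 ± 5.55 in WT. The part of such cells or of their RNA in the differences was not tested. Since most forebrain and midbrain factors were low there, the Dnmt1 KO data go against the label of forebrain and midbrain neuroepithelium for most of its genes, with Hesx1, Pax2 and in part Six3 as exceptions, and the cells are therefore called by the rule.

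Of 30 listed germline genes, 27 passed the filter on low counts in the fit with the KO groups, against 4 in the fit of WT cells alone. Genes at or near 0 in WT thus entered through the KO libraries in which they were high, so the counts that follow are a description and no median is given. In Dnmt1 KO 23 genes rose and 0 fell, in Dnmt3b KO 21 rose and 0 fell, and in Dnmt3a KO 2 rose, namely Slc25a31 and Stk31. All 3 comparisons share the WT libraries. The promoters of both genes called in each KO group are given first, with that of Trim5, a called gene of large gain in Dnmt1 KO that stayed at 0 in the other KO groups. They span the 250 bases before the RefSeq start (GRCm38.p6), read along the gene's strand, with each CpG, the dinucleotide that Dnmt enzymes methylate, in capitals. The regions are chr3:40708621-40708870 (plus strand), chr6:49395354-49395603 (plus strand) and chr7:104288107-104288356 (minus strand), in this order.
Slc25a31: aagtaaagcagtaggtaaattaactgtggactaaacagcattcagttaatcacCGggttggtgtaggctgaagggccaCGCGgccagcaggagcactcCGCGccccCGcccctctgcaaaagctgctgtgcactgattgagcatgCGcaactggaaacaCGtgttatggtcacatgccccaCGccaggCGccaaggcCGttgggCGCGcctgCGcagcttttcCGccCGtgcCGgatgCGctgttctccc
Stk31: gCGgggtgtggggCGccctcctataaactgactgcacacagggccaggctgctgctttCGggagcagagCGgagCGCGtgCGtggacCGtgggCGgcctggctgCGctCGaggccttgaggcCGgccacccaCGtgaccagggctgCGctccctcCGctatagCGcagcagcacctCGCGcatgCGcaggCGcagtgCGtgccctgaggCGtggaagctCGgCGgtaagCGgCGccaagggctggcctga
Trim5: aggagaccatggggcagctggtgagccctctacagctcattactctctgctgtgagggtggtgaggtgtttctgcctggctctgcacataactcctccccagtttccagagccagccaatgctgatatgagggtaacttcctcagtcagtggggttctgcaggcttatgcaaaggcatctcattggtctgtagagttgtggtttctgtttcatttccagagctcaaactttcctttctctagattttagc

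These hold 18, 26 and 0 CpG. The median over the 27 germline promoters found in RefSeq (of 30 listed genes) was 15, with a range from 4 to 31, and 6 over all 32851 promoters. The E-box CACGTG, which reads alike on both strands, occurred in 14 of the 27 (51.9%) and in 6.02% of all promoters. It is present once in Slc25a31 and Stk31. TCCCGC, the letters of the E2F site searched on both strands, occurred in 33.3% and 16.9%, respectively. These are matches of letters, not evidence of binding.

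Slc25a31, an ADP/ATP carrier of the testis, had at most 0.5002 CPM in any WT library. It had 20.2, 9.60 and 15.3 CPM in Dnmt1 KO, 13.6, 20.5 and 31.6 in Dnmt3b KO 1+2, 11 and 12, and 1.75, 6.86, 4.45 and 4.16 in Dnmt3a KO 1, 13, 14 and 2. The groups did not overlap with WT, and Dnmt3a KO lay below both other KO groups. The log2 differences were 8.17 in Dnmt1 KO, 8.36 in Dnmt3b KO (SE 0.53, edgeR adjusted p = 2.7e-08) and 6.03 in Dnmt3a KO (SE 0.59, edgeR adjusted p = 8.9e-05). Stk31, a germ cell kinase-like protein, had at most 0.424 CPM in WT and 1.40, 2.09, 2.87 and 1.49 CPM in Dnmt3a KO (log2 4.10, SE 0.52, edgeR adjusted p = 0.0020).

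Rpl39l is a testis copy of a ribosomal protein gene. It had 129, 103 and 168 CPM in Dnmt1 KO and 41.1, 49.5 and 95.4 in Dnmt3b KO, against at most 0.964 in WT (log2 8.20 and 6.80). In Dnmt3a KO it had 2.10, 5.37, 2.47 and 11 CPM, above every WT library, and was not called (log2 3.02, edgeR adjusted p = 0.018). Reads of such copies may be shared with their parent genes.

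Dazl, an RNA-binding regulator of germ cells, showed how uneven embryos were, at 18.4, 1.92 and 17.1 CPM in Dnmt1 KO and 0.930, 7.14 and 40.1 CPM in Dnmt3b KO 1+2, 11 and 12. Asz1, a piRNA pathway gene, had 1.86, 3.92 and 30.1 CPM in the same Dnmt3b KO libraries and 23.5, 10.6 and 17.6 in Dnmt1 KO. With 2 counts over all WT libraries, its ratio to WT was 742 in Dnmt1 KO (95% counting interval 202 to 6187) and 359 in Dnmt3b KO (97.9 to 2993). Dnmt3b KO 12 was thus highest in both genes.

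Several genes had 0 counts in all WT libraries. Against a floor of 3 counts over the WT group, Gtsf1, a transposon silencing factor, was at least 329-fold higher in Dnmt1 KO, Rpl10l at least 281-fold, the meiotic gene Hormad1 at least 197-fold and the noncoding 1700018B24Rik at least 373-fold. In Dnmt3b KO, Hormad1 was at least 205-fold and Rpl10l at least 133-fold higher. Other genes named for Dnmt3b KO were Cyct (log2 7.20), Tex19.1 (5.39), Fkbp6 (5.10) and Slc9b1 (4.10). Intervals and bounds cover counting error only.

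Outside the list, the values of 3 genes named for Dnmt1 KO are given for each group, and the difference between KO groups was not tested. Trim5, a gene with close paralogs beside it whose reads may be shared, had 17.6, 18.2 and 32.1 CPM in Dnmt1 KO and 3 counts over all WT libraries, a ratio of 668 (95% counting interval 225 to 3265). It had 0 counts in Dnmt3a KO and in Dnmt3b KO. Ccdc7a had 12.1, 17.3 and 14.3 CPM in Dnmt1 KO, with 2 counts in WT and a ratio of 554 (150 to 4633). In Dnmt3b KO it had 9 counts and at most 1.54 CPM, a ratio to WT of 20.2 (4.18 to 192), and in Dnmt3a KO 2 counts, a ratio of 2.47 (0.179 to 34.1). The noncoding gene 1700018B24Rik, with 0 counts in WT, was also at least 52.4-fold higher in Dnmt3b KO, where it was not called (edgeR adjusted p = 0.115) and stood at 8.48 CPM in Dnmt3b KO 12, 0.238 in Dnmt3b KO 11 and 0 in the merged library.

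**Figure D4:**
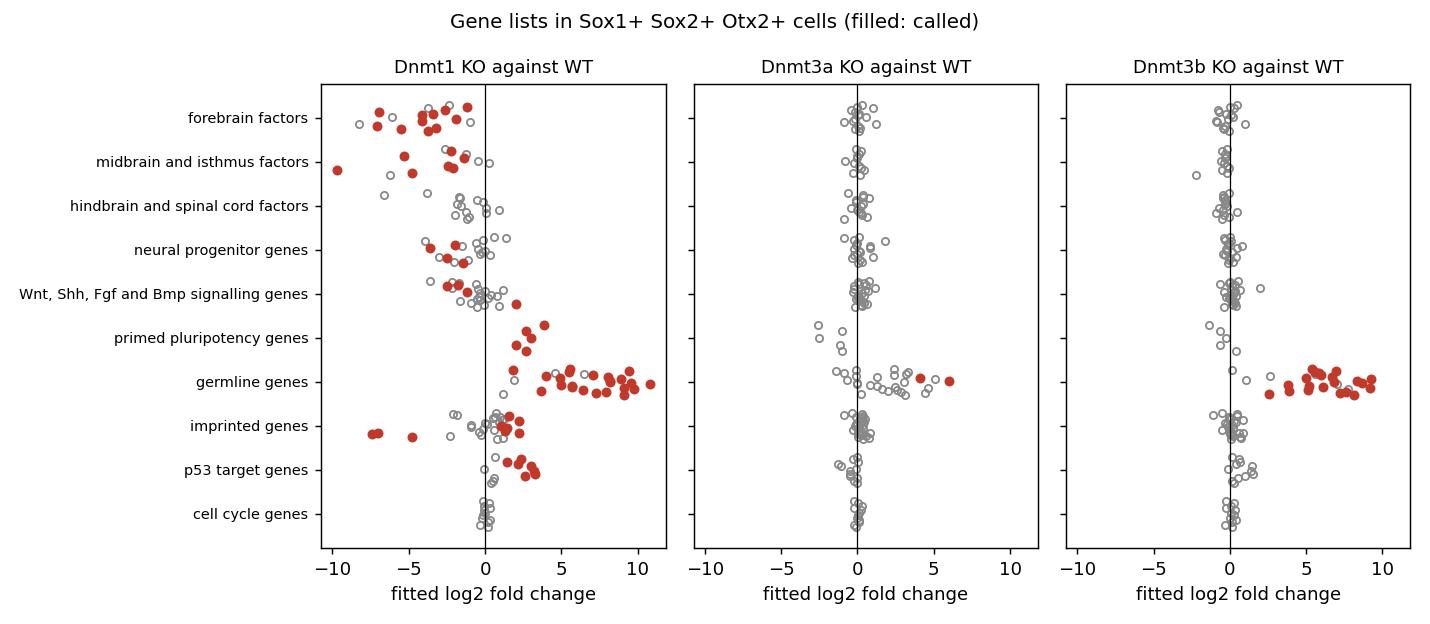
Fitted log2 fold change of KO against WT for the genes of 10 lists in Sox1+ Sox2+ Otx2+ cells, one panel per KO group. Filled red points are called genes and open points are not, and values of genes with 0 counts in a group depend on the fit and are not bounds. In Dnmt1 KO the forebrain and midbrain factors lie to the left and the germline, pluripotency and p53 genes to the right. In Dnmt3b KO the called points of these lists are germline genes, and in Dnmt3a KO they are Slc25a31 and Stk31.

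Imprinted genes, which are expressed from 1 parental copy under the control of methylation, moved in both directions in Dnmt1 KO, with 6 of 29 higher and 3 lower, and 8 of 28 higher and 5 lower with all 3 libraries, where Peg10 (log2 1.31), Snrpn (1.15), Zdbf2 (-1.97) and Mest (-1.11) were called as well. Grb10, a growth adaptor (chromosome 11, 11930508 to 12038683, minus strand), had 134 to 226 CPM in WT and 0.735, 0.960 and 0.989 in Dnmt1 KO, and fell by 7.42 on the log2 scale (SE 0.40, edgeR adjusted p = 3.4e-09). Cdkn1c, a cell cycle inhibitor, fell by 4.799 (3.68, 0 and 3.21 CPM against 47.0 to 193), and Igf2, already low in WT at 0.964 to 3.39 CPM, had 0 counts, at least 4.82-fold lower, a call that held in 11 of 27 settings. Among the noncoding imprinted RNAs, H19 had 466.5, 200.5 and 306 CPM against 50.4 to 171 (log2 2.21) and Meg3 645, 920 and 598 CPM against 210 to 299 (log2 1.42). Peg3 (2.24), Usp29 (1.58), Impact (1.30) and Mirg (1.03) rose too, and H19, Usp29 and Mirg lost their calls with the Y-linked covariate. In Dnmt3a KO and Dnmt3b KO 0 of 29 were called by edgeR, with 5 at an unadjusted p under 0.05 in each.

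Targets of p53, the factor that answers DNA damage, rose in Dnmt1 KO in 7 of 12 cases and fell in 0. Ccng1 had 63.2, 75.8 and 70.5 CPM against 9.30 to 14.3 in WT (log2 2.63, SE 0.34, edgeR adjusted p = 5.6e-05), Phlda3 53.3, 71.0 and 82.6 against 4.25 to 12.9 (2.99), and the cell cycle inhibitor Cdkn1a 29.4, 17.3 and 47.5 against 1.27 to 6.49 (3.26). Mdm2 and Bax differed by -0.10 and 0.50 and were not called. In Dnmt3a KO 0 of 12 were called by edgeR, with 2 at an unadjusted p under 0.05 and a median of -0.26. In Dnmt3b KO 0 of 12 were called by edgeR, with 7 at an unadjusted p under 0.05 (1757 of all 12955 genes) and a median of 0.56, and 1 library stood apart. Dnmt3b KO 12 had 50.9 CPM of Ccng1, 56.5 of Phlda3 and 26.0 of Cdkn1a, whereas the other Dnmt3b KO libraries had at most 13.6, 12.1 and 8.33. It was also highest of the Dnmt3b KO libraries in Pou5f1, at 30.3 CPM. It was the only library counted with a later Cell Ranger version, and the only female Dnmt3b KO embryo, and the part of either was not tested.

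**Figure D5:**
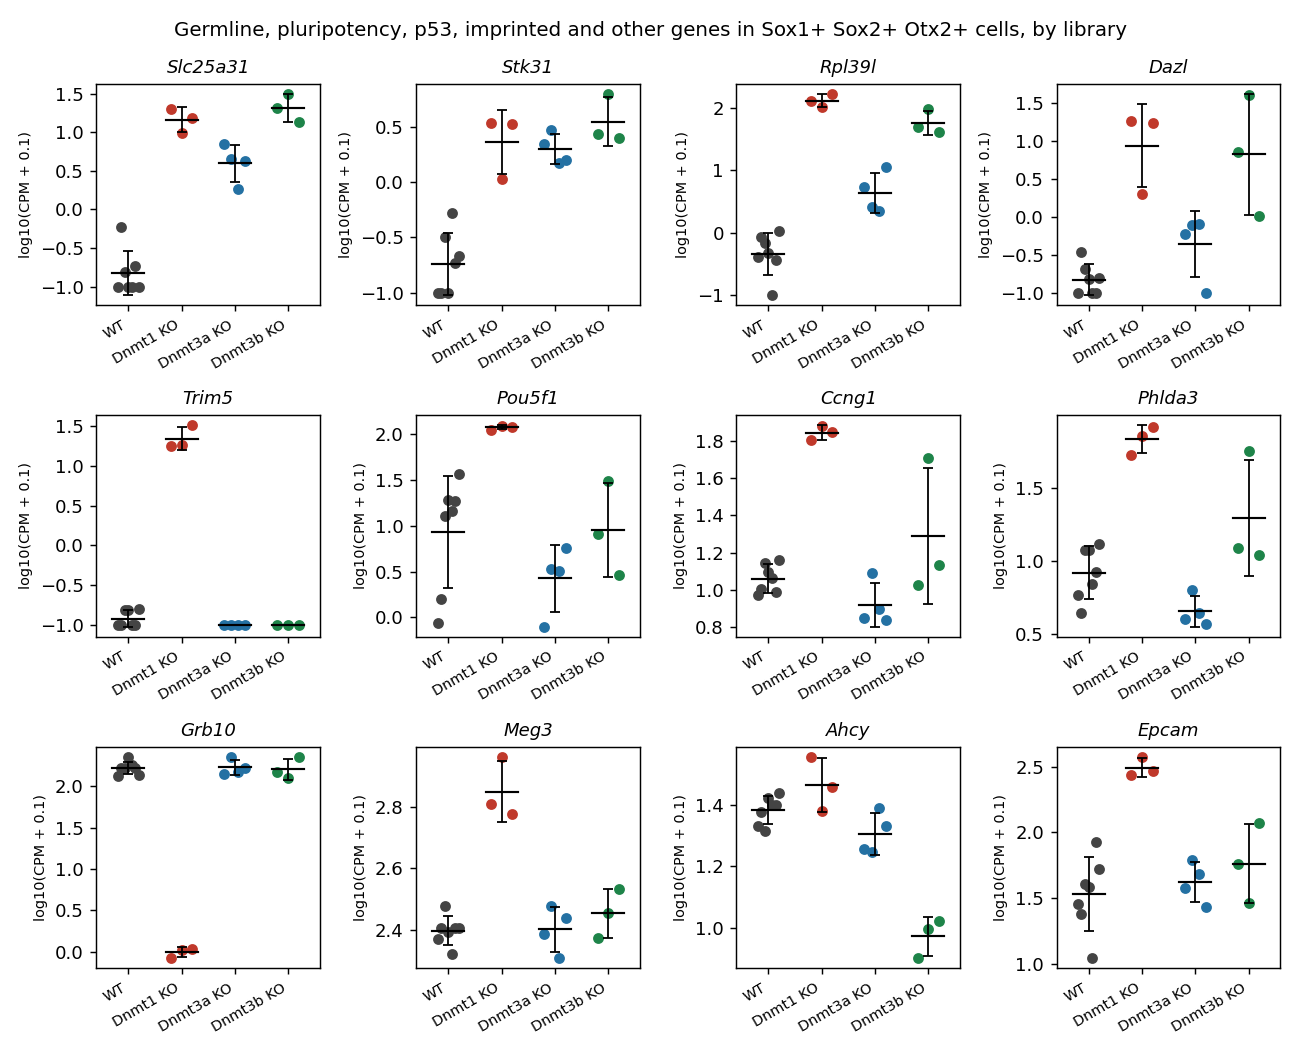
Levels of 12 genes in Sox1+ Sox2+ Otx2+ cells, as log10 of CPM plus 0.1, by genotype. Points are libraries, lines the mean and bars the SD of the plotted values. Slc25a31 and Stk31 are above WT in all 3 KO groups, Trim5, Pou5f1 and Epcam in Dnmt1 KO, Grb10 is low in Dnmt1 KO, and Ahcy is low in Dnmt3b KO, where 1 library stands apart for Dazl, Ccng1 and Phlda3.

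In Dnmt3a KO and Dnmt3b KO the regional identity genes gave 0 calls by edgeR, namely 0 of 16 forebrain factors (medians of 0.03 and -0.16) and 0 of 12 midbrain and isthmus factors (0.05 and -0.30). Six3 had 120, 134, 65.2 and 112 CPM in Dnmt3a KO 1, 13, 14 and 2 (log2 -0.44, edgeR adjusted p = 0.52) and 106, 81.4 and 67.6 in Dnmt3b KO 1+2, 11 and 12 (log2 -0.79, edgeR adjusted p = 0.11). In Dnmt3b KO every library was below the lowest WT library, at 111 CPM, and the missed threshold does not show that the levels are alike. Lhx2 was at 46.3, 32.8 and 38.6 CPM in Dnmt3b KO (log2 -0.92, edgeR adjusted p = 0.16), which overlaps with WT.

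Among the 4 lower genes of Dnmt3b KO, Ahcy had 10.4, 7.85 and 9.77 CPM against 20.6 to 27.4 in WT and 17.6 to 24.6 in Dnmt3a KO. It encodes the hydrolase that removes S-adenosylhomocysteine, the by-product of every methyl transfer, and lies on chromosome 2 at 155059310 to 155074497 (minus strand), near Dnmt3b itself at 153649450 to 153687730. It fell by 1.39 (SE 0.15, edgeR adjusted p = 2.2e-05) and kept the call in 28 of 29 settings. Obsl1 fell by 1.34 and lost its call with the Y-linked covariate. The remaining 2, Cacna2d2 and Mapk8ip2, were named after their values were seen.

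Finally, the KO differences in these cells were compared with those in the Sox1+ Sox2+ cells without an Otx2 UMI by an interaction test. In libraries with at least 25 cells of both classes, 3 of 14772 genes were called for Dnmt1 KO (0.0203%), namely H19, Emb and Sdc4, and this rests on a single Dnmt1 KO library assumed to vary like the other groups. With at least 10 cells of both classes, which keeps all 3 Dnmt1 KO libraries, 66 of 13757 genes were called (0.48%), among them Sdc4 but neither H19 nor Emb. The 66 also included Cyp26a1, where Dnmt1 KO was at 37.7 CPM in the Sox1+ Sox2+ Otx2+ cells and 6.13 in the others, against 8.33 and 10.1 in WT (log2 2.67). L1td1 was at 46.0 and 16.9 CPM against 4.18 and 6.43 (log2 1.85), and Hes3 at 7.26 and 41.3 CPM against 52.1 and 68.5 (log2 -1.99). Among the others, Ttr was at 162 and 22.4 CPM in Dnmt1 KO against 69.1 and 226 in WT, and Rbp4, Apoa1 and Apob had the same direction, all 4 named after their values were seen. These are genes of visceral endoderm, and the part of free RNA or mixed droplets was not tested. For Dnmt3a KO and Dnmt3b KO 0 genes were called by edgeR in either fit, with 893 and 865 at an unadjusted p under 0.05. The germline gains were found in the other class too, Slc25a31 at 14.8, 3.35 and 20.2 CPM in Dnmt1 KO, Dnmt3a KO and Dnmt3b KO, and nothing here sets them apart as particular to the forebrain and midbrain.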

How the data were processed

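Single E8.5 embryos were profiled with 10x Genomics 3' chemistry. The authors deposited raw UMI counts per gene and barcode, made with Cell Ranger (3.1.0 for 17 libraries and 5.0.0 for Dnmt3b KO 12, per the file headers, where the methods name 5.0.0 for all) on mm10. For 4 libraries the reference also held human genes, whose rows were dropped. Groups came from the genotype labels. The members and gene lists were chosen with earlier results of these data known.

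Barcodes with at least 3000 UMIs were kept. Counts of the Sox1+ Sox2+ Otx2+ cells were summed per library and tested with edgeR 4.0.16 (TMM, filterByExpr, quasi-likelihood, all groups in 1 fit) in R 4.3.3, from 25 cells per library, with Benjamini-Hochberg adjustment. Calls needed an adjusted p under 1% and a log2 difference of at least 1. DESeq2 1.42.0 was an alternative. The authors' methods name this test with the same thresholds and state that sums over cells were not used for testing, so the inputs differ from those here. Sox1, Sox2 and Otx2 were not tested. Planned permutation tests of the share and of the Otx2-detected fraction are not given, since the genes they count chose the cells. Scripts were tested on simulated data. Beside list members, the text names the called autosomal genes of largest difference whose libraries do not overlap with WT (8 in each direction per KO group, from 10 CPM) or that lie on 1 side in every WT embryo (10 in each direction between classes, from 20 CPM). Some genes of the lists entered the counts and are not reported by name here. Doublets called by Scrublet at 0.8% per 1000 barcodes were kept and left out as an alternative. Other alternatives were RLE scaling, no count filter, other cell minimums, a mitochondrial and ribosomal filter, covariates for Y-linked counts and for the reference, the replicate number as a block, and each library left out. P-values rest on the spread between embryos, each 1 library. Of the 31053 mouse genes 31011 matched GENCODE vM21, from which coordinates come.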

Additional observations from a re-analysis of the deposited data

Results flagged for a closer look

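Of 157 sets of 4 or 7 library values tested for a value far from the rest, 16 stood out. The nominal rate of 1 in 20 does not hold for genes with few counts, so the number is not set against chance. WT 2, the only male WT library, had 0.5002 CPM of Slc25a31, 0.250 of Dazl, 0.250 of Asz1, 0.250 of Ccdc7a, 3.50 of Tex19.1 and 7.50 of Utf1, each above the other WT libraries. The values of Slc25a31, Dazl, Asz1 and Ccdc7a in WT 2 stand for 1 or 2 counts. Obsl1 was at 5.75 CPM in WT 2, below the 9.85 to 12.7 of the others. Nanog had 3.35 CPM in WT 7 and at most 0.969 in the other WT libraries, and Ttr had 254.6 CPM in WT 3 and at most 105.5 in the others. WT 7 also held the highest share of Sox1+ Sox2+ Otx2+ cells at 20000 UMIs, 5.54% against 1.44 to 3.07%.

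In Dnmt3a KO, Cyp26a1 had 28.5 CPM in Dnmt3a KO 14 against 6.29 to 9.35 in the others, Fgf17 19.5 CPM against 6.54 to 8.45 and Lef1 77.6 CPM against 37.1 to 40.9 in the same library, and Cyct 10.7 CPM in Dnmt3a KO 2 against 1.05 to 2.39. Gtsf1 had 0.0994 CPM and Ccdc7a 0.199 CPM in Dnmt3a KO 13, from 1 and 2 counts, and 0 counts in the other Dnmt3a KO libraries.

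The fitted Dnmt1 KO difference was higher in Sox1+ Sox2+ Otx2+ cells than in Sox1+ Sox2+ cells without an Otx2 UMI for H19 (2.99 on the log2 scale), Emb (1.02) and Sdc4 (1.87). These values rest on 1 Dnmt1 KO library, whose spread is taken from the other groups. In the fit with all 3 Dnmt1 KO libraries Sdc4 was called (1.76), and H19 and Emb were not. Over all 3, mean H19 in Dnmt1 KO was 324 CPM in the Sox1+ Sox2+ Otx2+ cells and 246 in the others, against 89.3 and 103 in WT.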

How the results depend on the processing

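The difference in the Otx2-detected fraction depended on depth. Dnmt1 KO differed from WT by 20.2 points at full depth and 19.04 at 20000 UMIs (16.9 to 20.7 without single libraries there). At 3000 UMIs the difference was -10.2 points (-11.0 to -8.58 without single libraries). It rests on 0 of 6 Dnmt1 KO cells, so it follows the WT mean alone and shows no direction. For Dnmt3a KO it was -0.83 as planned, 0.36 from 6000 UMIs, and -2.62 to 0.88 without single libraries (0.88 without Dnmt3a KO 2, 0.80 without WT 5), and for Dnmt3b KO 0.05 as planned, -8.07 at full depth, -4.27 at 20000 UMIs (-5.58 to -3.12), -0.19 without doublets, -0.42 with Dnmt3b KO 1 and 2 apart and -1.96 to 1.68 without single libraries. At 20000 UMIs, Dnmt3a KO lay between -4.53 and -1.11. At full depth the fraction was 24.7 ± 2.6% in Dnmt3a KO and 31.2 ± 7.3% in WT, a larger difference than as planned. The log2 share differences without single libraries, at 3000 UMIs, ran from -2.71 to -2.18 for Dnmt1 KO (-2.23 to -1.78 at 20000 UMIs), -0.88 to 0.16 for Dnmt3a KO (-0.78 to -0.44), positive without Dnmt3a KO 2 alone, and -0.68 to -0.28 for Dnmt3b KO (-1.15 to -0.74). At 3000 UMIs the Dnmt1 KO libraries held 0 such cells. Their values there come from the 0.5 cells added before the log2 and from library size, so that range shows no stability.

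The number of called genes in Dnmt1 KO was 409 with the Y-linked covariate and 191 to 697 without single libraries. In Dnmt3a KO it was 28 with DESeq2, 19 with no count filter, 10 from 10 cells, 1 with 2 UMIs of Sox2 and Otx2, 0 with cells chosen after thinning to 20000 UMIs and 1 to 16 without single libraries: 16 without WT 2, 10 without Dnmt3a KO 1, 7 without Dnmt3b KO 1+2, 6 without Dnmt3b KO 12, and 1 without Dnmt3a KO 13, WT 6 or WT 7. In Dnmt3b KO it was 36 with cells chosen after thinning and 63 to 101 without single libraries, and between the WT classes 404 to 496. Thinning there decided only which cells entered. The tested counts were unthinned, fewer cells were summed, and WT 5, with 23 cells, was left out. Of 13 same-numbered pairs of samples 3 correlated above 0.1 (-0.205 to 0.189). Differently numbered pairs were not set beside them, so whether replicate numbers pair the samples is not settled. With the number as a replicate block, a fit that kept Dnmt3b KO 1 and 2 apart, the calls were 378, 1 and 8 for Dnmt1, Dnmt3a and Dnmt3b KO. Of these, 321, 0 and 2 were also calls of the main fit. The 1 call of Dnmt3a KO was a lower gene, and Slc25a31 and Stk31 were not called there.

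The interaction calls of Dnmt1 KO were 66 from 10 cells, 8 with RLE scaling, 160 with no count filter, 1 without doublets and 4 to 24 without single libraries, highest without WT 3, and those of Dnmt3a and Dnmt3b KO 7 and 13 with no count filter and 0 without single libraries. The Dnmt3a level in Dnmt3a KO passed the call with DESeq2 (-1.62), no count filter (-1.64) and 10 cells (-1.63), and ran from -1.77 to -1.51 without single libraries, Dnmt1 in Dnmt1 KO from -2.81 to -2.76, and Dnmt3b in Dnmt3b KO was 0.12 with the Y-linked covariate, 0.011 with the reference covariate and -0.251 to 0.053 without single libraries. The cause of these shifts was not tested. Of 2351 refits of 83 calls of named genes, 150 lost the call and 0 changed sign, most without Dnmt1 KO 3 (31), with the block (21), with the Y-linked covariate (19) and without Dnmt1 KO 1 (18).

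Fits on cells found after thinning to 3000 UMIs were not run, as too few cells remained, and libraries of 50 cells and thinning to 20000 UMIs left no Dnmt1 KO fit. The 20000 UMI depth and the 10-cell interaction were chosen after seeing the data. The Dnmt1 KO fit rests on 2 libraries, its cells number 101, and sex and genotype were largely confounded there.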
